A study of Arabidopsis thaliana with 18 samples.

Results

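The type B methionine sulfoxide reductases (MSRBs) are enzymes that repair oxidised methionine, and 4 of the 9 MSRB genes in the RefSeq annotation of Arabidopsis could be followed on the arrays of this experiment. They are MSRB3 (At4g04800), MSRB5 (At4g04830), MSRB6 (At4g04840) and MSRB9 (At4g21850), each measured by 1 probe set. Members were taken by symbol, as MSRB followed by a number, where the probe annotation gave a probe set to a single gene, as it did for 13350 genes in all. The other 5 genes, MSRB1, MSRB2, MSRB4, MSRB7 and MSRB8, were not named by that annotation and were not analysed here. MSRB5 was chosen by its measured difference between vte2 and Col at 48 h, so its genotype differences and its changes at 48 h are given as values with no test, whereas its changes at 120 h and the other 3 genes were tested.

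Reactive oxygen species convert methionine in proteins to methionine sulfoxide, which exists as S and R stereoisomers. Type A reductases act on the S form and type B reductases on the R form, and both are returned to their active state by thiol donors such as thioredoxins and glutaredoxins. In Arabidopsis, MSRB1 and MSRB2 are plastid enzymes and MSRB3 is an enzyme of the secretory pathway. Tocopherols, the vitamin E compounds, are lipid-soluble antioxidants of plastid membranes, and the Arabidopsis vte2 mutant lacks the phytyltransferase that commits homogentisate to their synthesis.

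The arrays held RNA from mature leaves of vte2 and of Col, the wild type, all grown for 4 weeks under permissive conditions (12 h light, 22°C by day and 18°C by night). Plants were sampled before low-temperature (LT) treatment at 7°C, here 0 h, and after 48 and 120 h of it, with 3 arrays for each of the 6 groups, 18 in all. Each RNA came from leaves 9 to 11 of 3 pooled plants, and no group carried any further allele or agent. Values are log2 expression levels, so that a difference of 1 is a 2-fold change. Across all 22810 probe sets the median level of an array lay between 4.98 and 5.18. Rubisco activase (RCA), which marks photosynthetic leaf tissue, lay between 12.53 and 13.63 on every array, and SWEET11, a sucrose transporter gene of the phloem, between 10.09 and 11.76. Of 21 markers listed for leaf, phloem, guard cell, flower, seed and root, 3 could be named on the array, and none of the 9 for flower, seed and root was among them.

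A doubt about single arrays and a doubt about labels touch the MSRB genes. Replicate 3 stood apart at 0 h in both genotypes, with correlations between replicate arrays reaching down to 0.936 in vte2 and 0.937 in Col, whereas all replicate pairs at 48 and 120 h correlated at 0.983 or above. At 120 h, the labelled genotypes put MSRB5 on the opposite side from 48 h, and also opposite to the heat map that the study drew for this gene. The gene mutated in vte2 was not named in the probe annotation used here, so that the genotype labels could not be checked with it. The 120 h groups are therefore called by their labels throughout, no direction between them is taken as settled, and values with the 120 h labels exchanged are given for the calls that they end or turn round.

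The measured genes lie in a pair of tandem groups on chromosome 4, by the order of genes in RefSeq assembly TAIR10.1. In the first, MSRB3 and MSRB4 are followed by the pseudogene At4g04820 and then MSRB5, with MSRB6 beyond a long non-coding RNA gene. In the second, MSRB7, MSRB8, MSRB9 and MSRB2 follow each other directly. Since tandem copies are alike, signal from an unmeasured copy in a measured probe set could not be checked without the probe sequences, and levels of different probe sets are not set against each other.

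**Figure D1:**
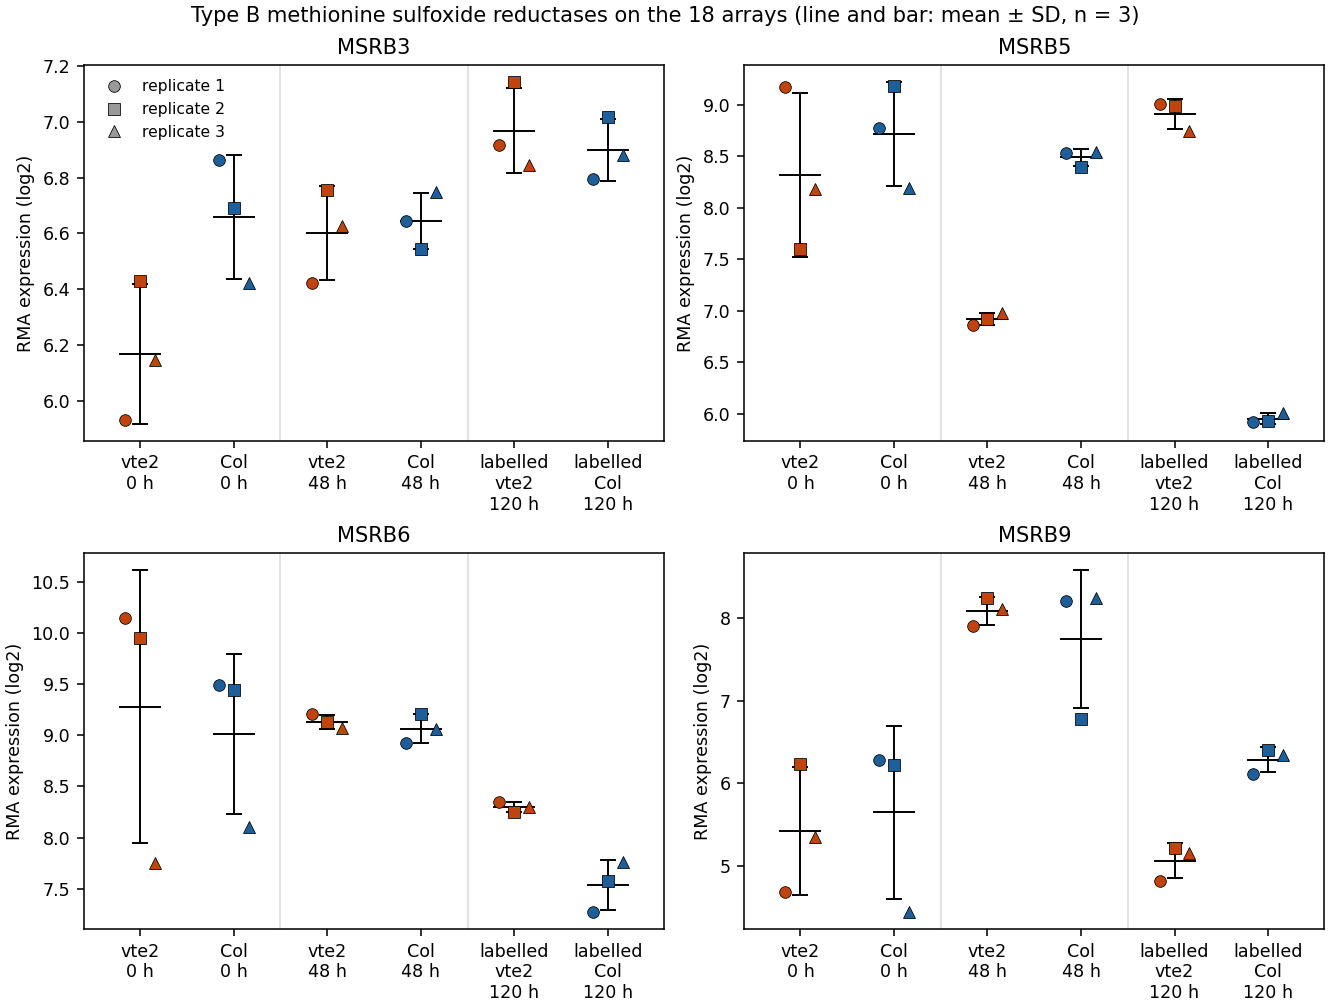
Log2 expression level (vertical axis) of MSRB3, MSRB5, MSRB6 and MSRB9 on each array, with vte2 left of Col at 0, 48 and 120 h of LT (horizontal axis); points are arrays, horizontal lines group means and vertical bars SD (n = 3), and the 120 h groups stand as labelled. MSRB5 shows its lowest levels on the 120 h arrays labelled Col (5.92 to 6.01) and the vte2 arrays at 48 h (6.86 to 6.98), and MSRB9 its highest at 48 h, while MSRB6 is scattered at 0 h.

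MSRB5 was the member with the widest split between genotypes at 48 and 120 h, and as labelled the split took opposite signs at the 2 LT times. At 0 h it lay at 9.18, 7.60 and 8.18 in vte2 and at 8.78, 9.19 and 8.19 in Col. The 0 h groups overlapped and were spread by up to 0.80 (SD, n = 3). At 48 h it lay at 6.86, 6.92 and 6.98 in vte2, against 8.53, 8.40 and 8.54 in Col, so that every vte2 array was below every Col array. At 120 h it lay at 9.01, 8.98 and 8.74 on the arrays labelled vte2, against 5.92, 5.93 and 6.01 on those labelled Col, again with no overlap. Among all probe sets, 16.1% at 48 h and 36.6% at 120 h did not overlap between genotypes.

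The MSRB5 mean at 0 h was 8.32 ± 0.80 in vte2 and 8.72 ± 0.50 in Col (SD, n = 3 each), a difference of -0.40, which was -0.83 without vte2 replicate 1 and -0.036 without vte2 replicate 2 at 0 h. At 48 h the means were 6.92 ± 0.06 in vte2 and 8.49 ± 0.08 in Col, a difference of -1.57 or 2.97-fold lower in vte2. This difference chose the gene and is a description. It was the 10th most negative of the 22810 probe sets. At 120 h the means were 8.91 ± 0.15 on arrays labelled vte2 and 5.95 ± 0.05 on arrays labelled Col. The labelled difference of 2.96, or 7.77-fold, was the 9th most positive, and with the labels exchanged it is -2.96. In bulk leaf RNA, fewer cells that express a gene and less of its RNA per cell cannot be told apart.

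Ordered by mean, MSRB5 was lowest on the 120 h arrays labelled Col, then in vte2 at 48 h, then in vte2 at 0 h, and the arrays of these groups did not overlap from one step to the next. The neighbouring groups above, up to those labelled vte2 at 120 h, overlapped. The group means spanned 2.96, a wider range than that of 97.4% of all probe sets.

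Relative to 0 h, the MSRB5 mean at 48 h of LT differed by -1.40 in vte2, or 2.64-fold, with all 3 arrays below all 3 of vte2 at 0 h, and by -0.23 in Col, where the arrays overlapped. With array weights the difference in Col was -0.51, and without Col replicate 2 at 0 h it was 0.0056. These are descriptions, since the 48 h arrays are those that picked the gene. At 120 h the difference from 0 h was -2.76 on the arrays labelled Col, or 6.79-fold lower, and 0.59 on those labelled vte2. These values are descriptions too, since the 120 h arrays enter the genotype difference for which the gene was picked. With the 120 h labels exchanged, the fall at 120 h belongs to vte2, with a difference of -2.365 against vte2 at 0 h. Col then differs by 0.20. Leaving out any 1 array, the labelled difference lay between -3.03 and -2.53 for Col and between 0.23 and 1.02 for vte2. The value of 1.02 came without vte2 replicate 1 at 0 h, the highest vte2 array at that time.

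MSRB9 showed the strongest LT response at 48 h of the family, and it did so in both genotypes. At 0 h it lay at 4.68, 6.23 and 5.35 in vte2 and at 6.27, 6.22 and 4.44 in Col, overlapping. At 48 h it lay at 7.90, 8.24 and 8.10 in vte2 and at 8.21, 6.78 and 8.24 in Col. All 48 h arrays were thus above all 0 h arrays of their genotype, although Col replicate 2 was well below its companions. At 120 h it lay at 4.81, 5.22 and 5.16 on the arrays labelled vte2, against 6.11, 6.40 and 6.34 on those labelled Col, with no overlap.

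MSRB9 rose at 48 h by 2.66 in vte2 (SE 0.48, 6.33-fold, adjusted p = 4.17e-04) and by 2.099 in Col (SE 0.48, 4.28-fold, adjusted p = 0.00316). The call in Col was lost when only the arrays compared were fitted (adjusted p = 0.0585, range 7.14e-05 to 0.0585 over the alternatives). At 120 h the arrays overlapped those of 0 h under both labels, with a difference from 0 h of -0.36 on arrays labelled vte2 (interval -1.38 to 0.67, adjusted p = 0.662) and 0.64 on arrays labelled Col (interval -0.39 to 1.66, adjusted p = 0.363). The first was 0.0473 without vte2 replicate 2 and -0.73 without vte2 replicate 1 at 0 h, and the second was 0.0359 without Col replicate 3 at 0 h. Its group means spanned 3.02, wider than 97.6% of probe sets.

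MSRB6 was marked by the scatter of the 0 h arrays. It lay at 10.15, 9.95 and 7.75 in vte2 and at 9.49, 9.44 and 8.11 in Col at 0 h, so that replicate 3 minus the mean of replicates 1 and 2 was -2.30 in vte2 and -1.36 in Col. At 48 h it lay at 9.20, 9.13 and 9.07 in vte2 and at 8.93, 9.21 and 9.06 in Col, a close and overlapping set. At 120 h it lay at 8.35, 8.25 and 8.30 on the arrays labelled vte2, against 7.28, 7.57 and 7.76 on those labelled Col, below all 48 h arrays and not overlapping with each other.

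MSRB6 fell at 120 h on the arrays labelled Col, with a difference of -1.48 (SE 0.48, adjusted p = 0.03), and the difference on the arrays labelled vte2 was -0.98 (interval -2.0004 to 0.04, adjusted p = 0.166). The Col call was lost without Col replicate 1 or 2 at 0 h, without any of the 3 arrays labelled Col at 120 h, and with the 120 h labels exchanged (adjusted p 4.66e-08 to 0.33 over all alternatives). With the labels exchanged, limma gave -0.71 in Col (adjusted p = 0.33) and -1.74 in vte2, which passed (adjusted p = 0.0121). With the labels kept, the difference on arrays labelled vte2 was -1.75 and passed without vte2 replicate 3 at 0 h (adjusted p = 4.94e-04). It also passed with the replicate number as a block (adjusted p = 0.00225, range 1.28e-07 to 0.512 over all alternatives). At 48 h the difference from 0 h was -0.15 in vte2 (interval -1.17 to 0.87) and 0.05 in Col (interval -0.97 to 1.07). Without replicate 3 of both genotypes at 0 h, the values at 48 h were -0.91 in vte2 (adjusted p = 4.56e-05, range 4.56e-05 to 0.913) and -0.40 in Col (adjusted p = 0.0259, range 0.0259 to 0.995). The vte2 value also passed when only vte2 replicate 3 at 0 h was left out.

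MSRB3, the enzyme of the secretory pathway, moved least. It lay at 5.93, 6.43 and 6.15 in vte2 and at 6.86, 6.69 and 6.42 in Col at 0 h. At 48 h it lay at 6.42, 6.76 and 6.63 in vte2 and at 6.64, 6.54 and 6.75 in Col. At 120 h it lay at 6.92, 7.14 and 6.85 on arrays labelled vte2 and at 6.80, 7.02 and 6.88 on arrays labelled Col. Genotypes overlapped at all 3 times, and the group means spanned 0.80, more than the range of 61.2% of probe sets.

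Relative to 0 h, MSRB3 rose by 0.43 in vte2 at 48 h (SE 0.14, adjusted p = 0.0288) and by 0.80 on the arrays labelled vte2 at 120 h (SE 0.14, 1.74-fold, adjusted p = 7.57e-04). The 48 h call was lost without vte2 replicate 1 or 3 at 0 h, without vte2 replicate 2 or 3 at 48 h, and in 3 other alternatives (adjusted p 0.00752 to 0.131), and the 120 h call was kept in all 27 alternatives (0.000327 to 0.0254). In Col the difference was -0.01 at 48 h (adjusted p = 0.953) and 0.24 on the arrays labelled Col at 120 h (interval -0.07 to 0.55, adjusted p = 0.245).

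**Figure D2:**
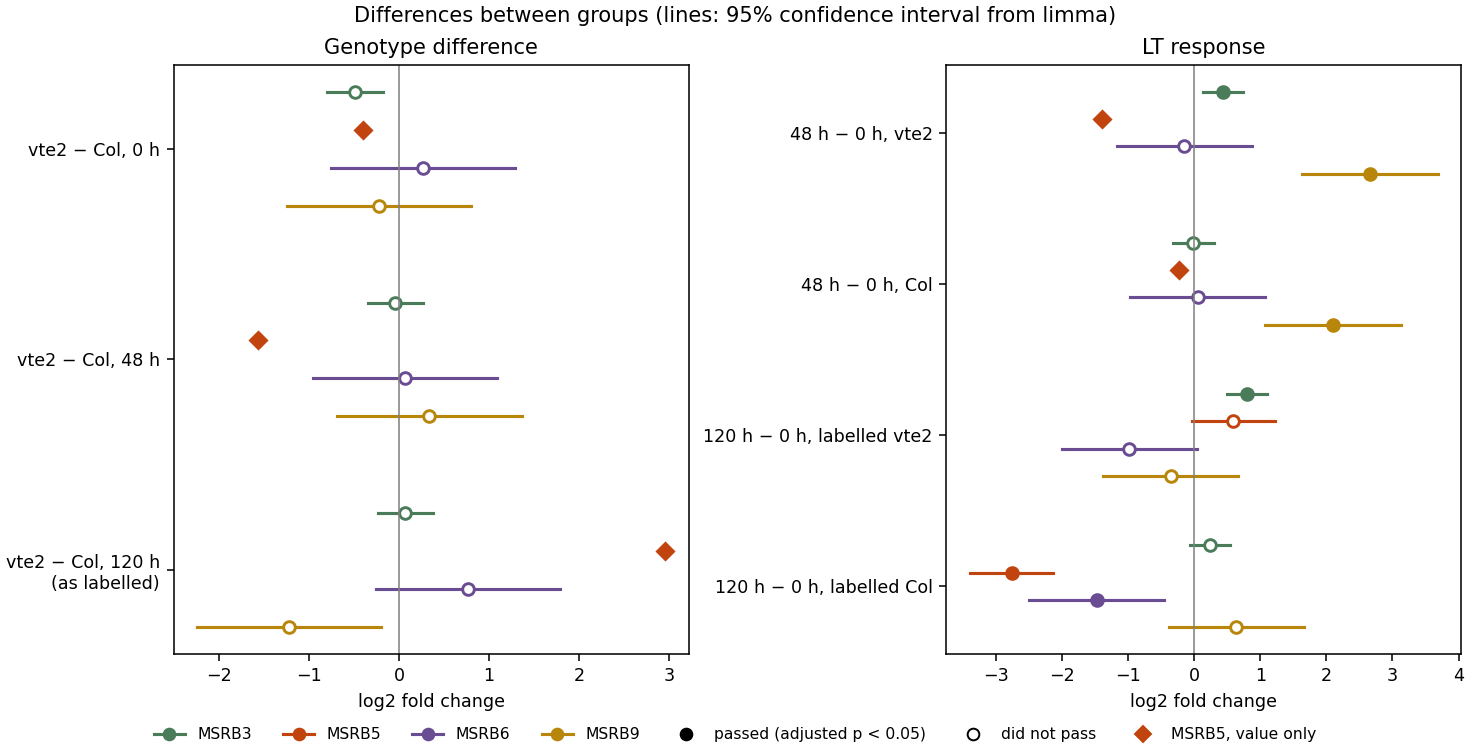
Log2 fold changes (horizontal axes) of the 4 MSRB genes: vte2 minus Col at each time on the left, and 48 or 120 h minus 0 h on the right (vertical axes list the contrasts), with 95% confidence intervals as lines, filled circles where the adjusted p was under 0.05 and diamonds where MSRB5 is shown without a test (all genotype differences and both 48 h changes). The circles and intervals of MSRB5 at 120 h come from arrays that enter its genotype difference and serve as description. MSRB9 stands at 2.66 in vte2 and 2.099 in Col at 48 h, and MSRB5 at -1.57 for the genotypes at 48 h and 2.96 at 120 h as labelled.

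MSRB5 was left out of the family counts, since it was picked for its genotype difference. Of the other 3 genes, 2 passed the threshold in vte2 at 48 h of LT (MSRB3 and MSRB9 higher), where 34.4% of all probe sets passed. In Col 1 of 3 passed (MSRB9 higher), where 32.3% of probe sets did. At 120 h, 1 of 3 passed on the arrays labelled vte2 (MSRB3 higher), where 23.5% of probe sets did. On those labelled Col 1 of 3 passed (MSRB6 lower), where 29% did. The median difference over the 4 genes, MSRB5 included, was 0.14 in vte2 and 0.02 in Col at 48 h. At 120 h it was 0.12 on arrays labelled vte2 and -0.62 on arrays labelled Col. Over all probe sets these medians lay between -0.08 and -0.03. Without MSRB5, the arrays of the LT group and of 0 h did not overlap for 1 of 3 genes in each LT contrast. This gene was MSRB9 at 48 h, MSRB3 as labelled vte2 at 120 h and MSRB6 as labelled Col at 120 h. Among all probe sets, 41.5% in vte2 and 42.5% in Col did not overlap at 48 h. At 120 h it was 34.6% on arrays labelled vte2 and 41.2% on arrays labelled Col. Contrasts of 1 genotype share its 0 h arrays.

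Among the 3 genes whose genotype difference was tested, limma called none at any time. At 0 h, where 0.00877% of probe sets passed, MSRB3 was -0.49 in vte2 minus Col (interval -0.80 to -0.18, adjusted p = 0.333), the 1 of 3 with an unadjusted p under 0.05. Of all 22810 probe sets, 1947 had such a p. Without replicate 3 of both genotypes at 0 h, MSRB6 passed, at 0.58 (adjusted p = 0.0357, range 0.0357 to 1), a setting in which 4.57% of probe sets did. At 48 h, where 0.338% passed, the differences were -0.04 for MSRB3 (interval -0.35 to 0.27), 0.07 for MSRB6 (interval -0.95 to 1.09) and 0.34 for MSRB9 (interval -0.69 to 1.36). An unadjusted p under 0.05 was found for 0 of 3 and for 1296 of 22810 probe sets. The genotypes overlapped for 3 of 3 at 0 h and for 3 of 3 at 48 h, while 6.7% of probe sets at 0 h and 16.1% at 48 h did not overlap. The split of MSRB5 at 48 h thus had no called counterpart among the other members, though the intervals of MSRB6 and MSRB9 are wide, and whether the members differ from each other was not tested.

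At 120 h, where 6.53% of probe sets passed, the labelled difference was -1.22 for MSRB9 (interval -2.25 to -0.20, adjusted p = 0.178), the 1 of 3 with an unadjusted p under 0.05. Of all 22810 probe sets, 3930 had such a p. The labelled difference was 0.76 for MSRB6 (interval -0.26 to 1.78, adjusted p = 0.494) and 0.07 for MSRB3 (interval -0.24 to 0.38, adjusted p = 0.917). The arrays of MSRB6 and MSRB9 did not overlap between the labels, as was so for 36.6% of all probe sets. The pooled spread takes in the 0 h arrays, where MSRB6 had an SD of 1.33 in vte2 and 0.78 in Col, against 0.05 on arrays labelled vte2 and 0.24 on arrays labelled Col at 120 h. Fitted on the 120 h arrays alone, both passed, with an adjusted p of 9.69e-04 for MSRB6 (range 0.000513 to 0.703) and 6.16e-05 for MSRB9 (range 6.16e-05 to 0.411), where 23.9% of probe sets passed. MSRB6 also passed with the replicate number as a block (adjusted p = 0.0251), where 11.4% did.

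Whether the genotype difference changed between times was tested for the same 3 genes. None passed for 48 h against 0 h, where 0.0526% of probe sets did and MSRB3 was the 1 of 3 with an unadjusted p under 0.05. Of all 22810 probe sets, 1683 had such a p. None passed for 120 h against 48 h, where 5.91% did as labelled and 0.153% did with the 120 h labels exchanged. MSRB9 was the 1 of 3 with an unadjusted p under 0.05 there, at -1.56 (SE 0.68, adjusted p = 0.246), and 3878 of 22810 probe sets had one as labelled. For MSRB5 the change from 0 to 48 h was -1.17, and -1.53 to -0.74 with any 1 array left out (-0.74 without vte2 replicate 1 at 0 h). Its change from 48 to 120 h was 4.53 as labelled and -1.39 with the labels exchanged. Both are given as values.

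The members did not form a common pattern over the 18 arrays. Pearson's r was 0.47 between MSRB5 and MSRB6, 0.26 between MSRB6 and MSRB9, 0.13 between MSRB3 and MSRB9, -0.19 between MSRB3 and MSRB5, -0.36 between MSRB5 and MSRB9 and -0.43 between MSRB3 and MSRB6. Spearman's rho was 0.47, 0.17, 0.05, -0.01, -0.40 and -0.40 in the same order. These are descriptions over arrays that share time points and genotypes.

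Among 3512 genes whose group means spanned at least 1, those closest to MSRB5 by Pearson's r over the 6 group means were At1g21440 (0.988), At4g38660 (0.981), At4g02850 (0.979), At3g17770 (0.970) and At2g43760 (0.962). At1g21440 averaged 8.56 in vte2 and 9.08 in Col at 0 h, 7.59 in vte2 and 8.76 in Col at 48 h, and 8.83 on arrays labelled vte2 and 7.00 on those labelled Col at 120 h. It was also first when r was taken over all 18 arrays (0.931), the only one of the 5 that stayed among the first 5 by that measure.

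The most opposite genes were At4g20320 (-0.974), At1g26450 (-0.964), SAG29 (-0.945), which encodes a SWEET sugar transporter linked to senescence, cwINV6 (-0.939) and At1g14480 (-0.934). At1g26450 averaged 6.38 in vte2 and 3.76 in Col at 48 h, and 3.55 on arrays labelled vte2 and 6.64 on those labelled Col at 120 h, so that its split ran against that of MSRB5 at both times. At1g21440, At1g26450, At4g20320 and SAG29 were, like MSRB5, among the genes the study chose for their 48 h genotype difference.

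**Figure D3:**
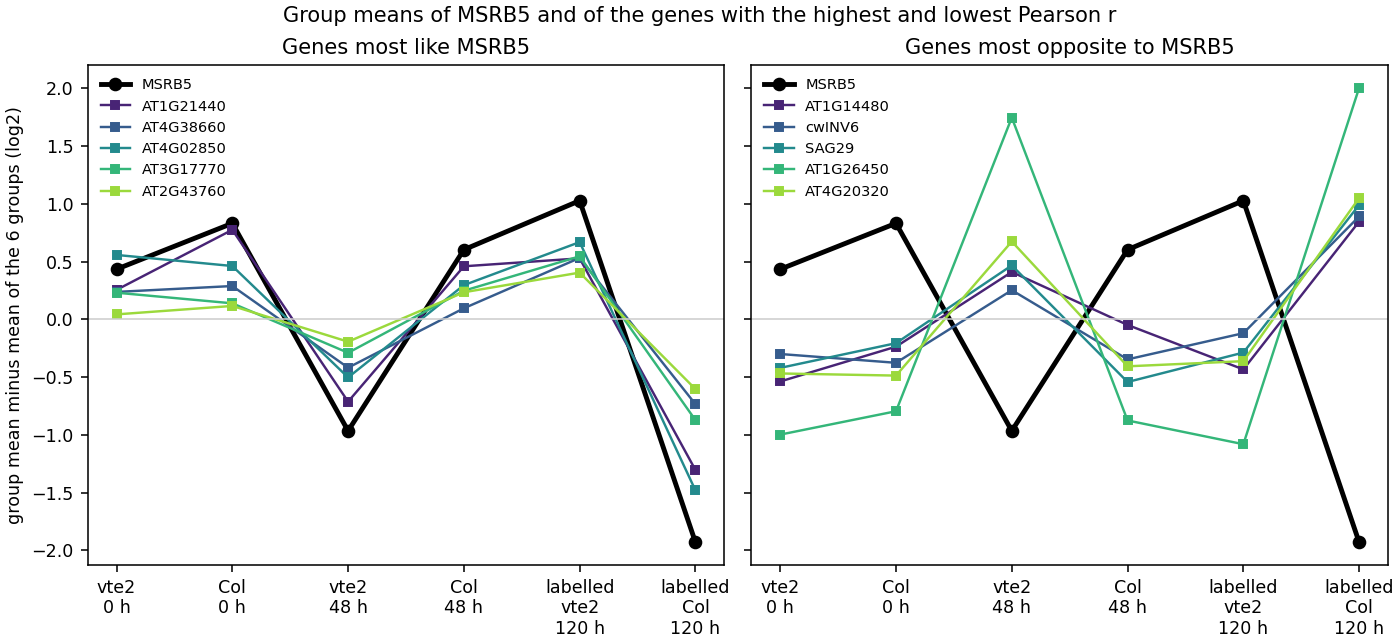
Group means of MSRB5 and of the 5 genes most like it (left) and the 5 most opposite to it (right), each as log2 difference from its own mean over the 6 groups (vertical axis), with vte2 left of Col at 0, 48 and 120 h (horizontal axis, 120 h as labelled). The most opposite gene reaches r = -0.974 and the most alike r = 0.988 over these 6 means.

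Of the genes lying around the 2 tandem groups, 8 were measured. None of them passed the threshold for a genotype difference by limma, where 0.00877% of all probe sets passed at 0 h, 0.338% at 48 h and 6.53% at 120 h. An unadjusted p under 0.05 was found for 0 of 8 at 0 and 48 h and for 1 of 8, At4g21870, at 120 h. Of all 22810 probe sets, 1947 had one at 0 h, 1296 at 48 h and 3930 at 120 h. Next to MSRB5, the pseudogene At4g04820 averaged 4.08 ± 0.27 in vte2 and 3.99 ± 0.15 in Col at 48 h, and 4.10 ± 0.18 on arrays labelled vte2 and 4.01 ± 0.14 on those labelled Col at 120 h (SD, n = 3), low values on a probe set marked as able to bind other transcripts, and the MSRB5 split was not seen in it. Beside MSRB3, At4g04790 rose at 48 h by 0.67 in vte2 and 0.76 in Col. Near MSRB9, At4g21870 fell with LT in every contrast, with differences from 0 h of -3.72 in vte2 and -3.24 in Col at 48 h, and of -2.52 on arrays labelled vte2 and -4.91 on arrays labelled Col at 120 h. Its difference between genotypes was -0.89 at 48 h (adjusted p = 0.9995) and 1.98 at 120 h as labelled (adjusted p = 0.149), the same signs as those of MSRB5 but not called. Its 0 h arrays were spread by an SD of 1.86 in vte2 and 1.46 in Col. DER2.1, which encodes a derlin of the endoplasmic reticulum, fell by 0.95 in vte2 at 48 h (adjusted p = 0.00525), and At4g21865 rose by 0.51 there (adjusted p = 0.00489).

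**Figure D4:**
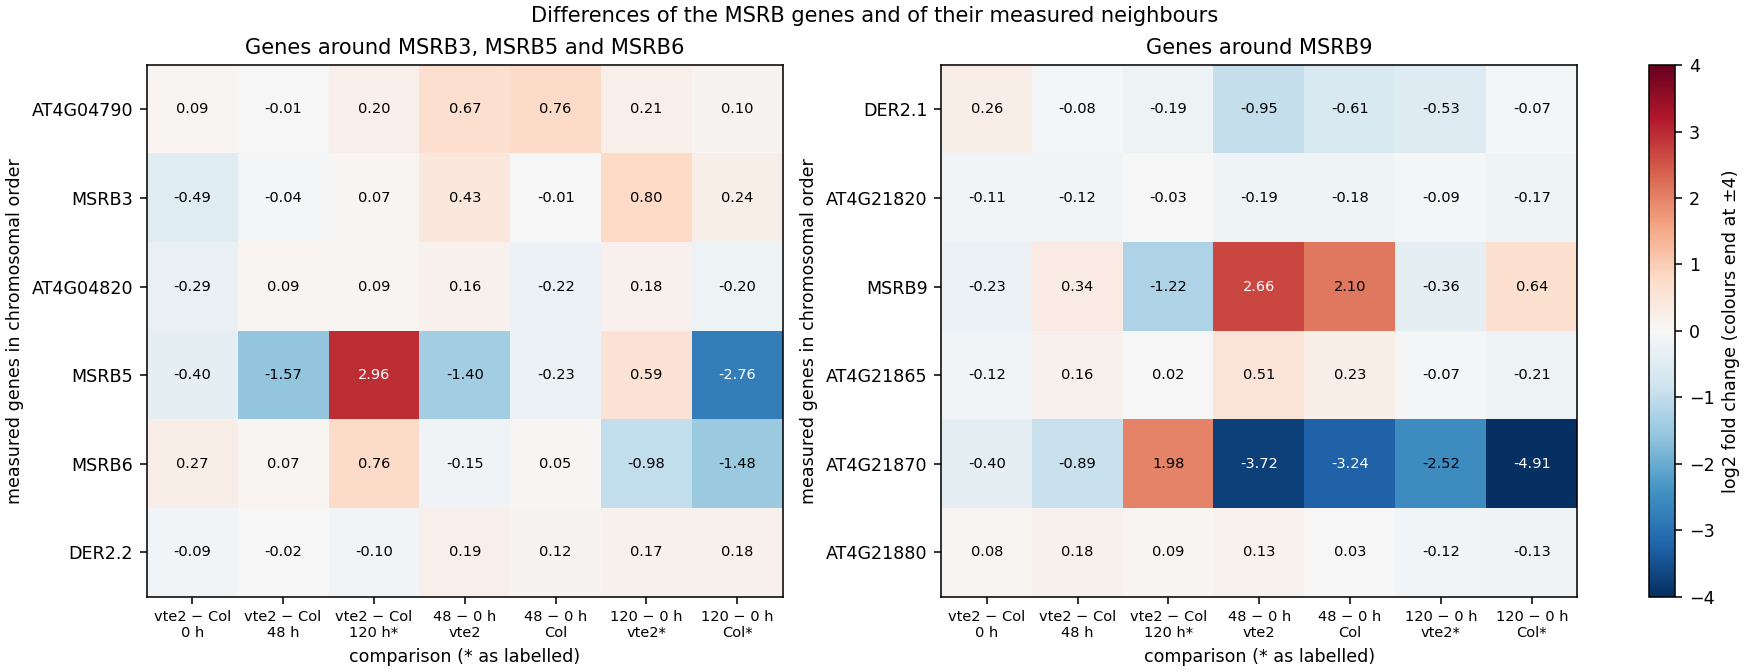
Log2 fold changes (colour, ending at 4 either way, with the value printed in each cell) of the measured genes in the 2 tandem groups, in their order along the chromosome (rows), for genotype differences and LT responses (columns). The strongest value is that of At4g21870 at 120 h on arrays labelled Col (-4.91), and the genotype differences of MSRB5 at 48 and 120 h (-1.57 and 2.96) have the signs of those of At4g21870 (-0.89 and 1.98), which were not called.

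The wider repair system was read from 5 lists with 49 genes in all, of which 17 were named on the array. At 48 h of LT, 2 rose and 8 fell in vte2, where 34.4% of all probe sets passed, and 2 rose and 5 fell in Col, where 32.3% did. At 120 h, 4 rose and 2 fell on arrays labelled vte2 (23.5% of all probe sets), and 5 rose and 4 fell on those labelled Col (29%). Between genotypes limma called 0 of 17 at 0 h and 0 of 17 at 48 h, where 0.00877% and 0.338% of all probe sets passed. An unadjusted p under 0.05 was found for 1 and 3 of 17, and for 1947 and 1296 of 22810 probe sets. At 120 h 1 was higher (TRXF2) and 1 lower (GRXC1) on arrays labelled vte2, where 6.53% of all probe sets passed and both directions turn with the labels.

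Of the type A reductases, 1 of 5 was named. MSRA5 rose at 120 h by 0.54 on arrays labelled vte2 (adjusted p = 0.00612) and by 0.45 on arrays labelled Col (adjusted p = 0.015), and it passed in no other contrast.

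Of the thioredoxin system, the main electron donors, 7 of 20 genes were named. At 48 h 3 of 7 fell in vte2, where 34.4% of all probe sets passed, and 2 of 7 in Col, where 32.3% did. TRXF2, a plastid f-type thioredoxin, averaged 9.41 in vte2 and 9.29 in Col at 0 h, 6.98 in vte2 and 7.38 in Col at 48 h, and 8.60 on arrays labelled vte2 and 8.01 on those labelled Col at 120 h. It fell in all 4 LT contrasts, with differences from 0 h of -2.43 in vte2 and -1.91 in Col at 48 h, and of -0.80 on arrays labelled vte2 and -1.28 on arrays labelled Col at 120 h. NTRC, the plastid NADPH-dependent thioredoxin reductase with its own thioredoxin domain, rose at 120 h by 0.71 on arrays labelled vte2 and 0.67 on arrays labelled Col.

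Glutaredoxins, the donors of some plant MSRBs, were named for 3 of 6. GRXC2 rose at 48 h by 0.52 in vte2 and 0.41 in Col, and at 120 h by 0.67 on arrays labelled vte2 and 0.76 on arrays labelled Col. The glutaredoxin gene At2g20270 rose at 120 h by 1.03 on arrays labelled vte2 and 0.81 on arrays labelled Col. GRXC1 fell at 48 h, with differences of -0.66 in vte2 and -0.58 in Col, and at 120 h it was lower on arrays labelled vte2 than on those labelled Col, with a difference of -0.45 (adjusted p = 0.0452) that is 0.45 with the labels exchanged.

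Sulfiredoxin and peroxiredoxin genes, which deal with peroxides through cysteine chemistry, were named for 3 of 5. At 48 h 3 of 3 fell in vte2 (34.4% of all probe sets passed) and 1 of 3 in Col (32.3%). However, the genotype difference in response passed for 0 of 3 by limma (0.0526% of all probe sets). Of these, At3g11630 had an unadjusted p under 0.05, as had 1683 of 22810 probe sets. At3g52960 in Col was near the threshold (-0.25, adjusted p = 0.0522). SRX, the sulfiredoxin that repairs over-oxidised peroxiredoxins, fell in all 4 LT contrasts, with differences from 0 h of -1.33 in vte2 and -1.20 in Col at 48 h, and of -1.36 on arrays labelled vte2 and -0.87 on arrays labelled Col at 120 h. Of genes that make or use methionine, 3 of 13 were named. HMT-1, a homocysteine methyltransferase, rose at 48 h by 2.63 in vte2 and 1.42 in Col, and fell on arrays labelled Col at 120 h, with a difference of -1.07 that with the labels exchanged was -0.87 in Col (adjusted p = 0.104), while CBL, a cystathionine beta-lyase of methionine synthesis, fell by 1.11 in vte2 at 48 h. MGL, a methionine gamma-lyase that breaks methionine down, fell in Col at 48 h, with a difference of -1.08, and on arrays labelled Col at 120 h, with one of -0.99 (-0.90 with the labels exchanged).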

How the data were processed

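Leaf RNA of vte2 and Col was hybridised to Affymetrix ATH1 arrays. The authors deposited log2 expression values made by RMA in the affy package under R 2.9, quantile-normalised over all 18 arrays and used here as deposited. Values of 22810 probe sets were fitted with limma 3.58.1 in R 4.3.3 as 6 group means (12 residual degrees of freedom), with Benjamini-Hochberg adjustment within each contrast and a threshold of 0.05. Fits ran over all probe sets and were tested on simulated data. The annotation gave 1 gene to 13513 probe sets, several to 503 and none to 8794. Arrays of the same replicate number deviated alike in the 2 genotypes at 0 h (r of deviations 0.397 to 0.791). This was less so at 48 h (0.054 to 0.302) and not so at 120 h (-0.151 to 0.0096). At 0 h replicates 1 and 2 also went together across numbers (0.462 and 0.496), so the numbers did not single out matched pairs. All MSRB genes were named, and from each related list at most 4 called genes of largest change. Members and lists were chosen with earlier results of these data known. Alternatives covered scaling, filters, array weights, arrays left out, a replicate block and exchanged 120 h labels. The number of arrays limits precision. Replicates are labelled biological.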

Additional observations from a re-analysis of the deposited data

Results flagged for a closer look

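MSRB5 differed between genotypes in opposite directions at the LT times as labelled, with vte2 minus Col at -1.57 at 48 h and 2.96 at 120 h. With the 120 h labels exchanged, the second value is -2.96, the same sign as at 48 h. At each of these times all arrays of one genotype lay on one side of all arrays of the other. This was so for 16.1% of all probe sets at 48 h and 36.6% at 120 h, and the 48 h values are those that picked the gene. The difference between the times was not tested, since the gene was chosen for its genotype difference.

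TRXF2, the plastid f-type thioredoxin, had a genotype difference that changed between 48 and 120 h by 1.00 on the log2 scale by limma's interaction test (adjusted p = 0.016). CBL, the cystathionine beta-lyase, changed in the same test by 1.26 (adjusted p = 0.0115). Both rest on the 120 h labels: with these exchanged, the change was -0.19 for TRXF2 (adjusted p = 1) and 0.41 for CBL (adjusted p = 0.925), and neither passed.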

How the results depend on the processing

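Of 248 recomputed counts of called MSRB genes, 225 stayed within 1.5 times the main count. Of 854 recomputed values of single genes, 786 kept their direction and, where a test was made, their side of the threshold. Many alternatives left the compared means as they were and could not turn a direction, so this number is no measure of support. Genotype differences of MSRB5, and their changes between times, counted as kept if they held their direction and moved by less than the pooled SD within groups. Its changes from 0 h were scored by direction and side of the threshold, although they are given here as values only. The count at 0 h between genotypes was 1 in place of 0 without replicate 3 of both genotypes at 0 h. The count at 120 h between labels, 0 as reported, was 2 with array weights, 2 on only the arrays compared, 2 without those replicates and 1 with the replicate block. The recomputed counts for LT take in MSRB5, which was picked from these data. With it the main count was 3 in vte2 at 48 h and 2 as labelled Col at 120 h. The count for 48 h of LT in Col, 1 as reported, was 2 with array weights. There MSRB5 passed the threshold at -0.51, on arrays that picked it, so this addition is no support. The same count was 0 on only the arrays compared and 2 without those replicates (MSRB6 added, at -0.40). For 120 h as labelled vte2, 1 as reported, it was 2 with array weights, 3 with exchanged labels, 2 with the replicate block, 2 without those replicates and 1 to 2 leaving out any 1 array. For 120 h as labelled Col, 2 with MSRB5, it was 0 with exchanged labels and 1 to 2 leaving out any 1 array. For the interaction of 120 h with 48 h, 0 as reported, it was 1 with array weights, 2 on only the arrays compared and 1 without those replicates. The block changed no other count of calls by over 1.5 times. The cause of these changes was not tested.

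Directions also turned. With cyclic loess MSRB3 was 0.0217 at 48 h in Col, and MSRB6 there was -0.36 with array weights and -0.40 without replicate 3 of both genotypes at 0 h. With the 120 h labels exchanged, vte2 minus Col was -0.0697 for MSRB3, -2.96 for MSRB5, -0.76 for MSRB6 and 1.22 for MSRB9. The change from 0 h was then -2.365 in vte2 and 0.20 in Col for MSRB5, and 0.86 in vte2 and -0.58 in Col for MSRB9, and the change of the genotype difference from 48 to 120 h was -1.39 for MSRB5 and 0.88 for MSRB9. Leaving out any 1 array, MSRB3 ranged from -0.13 to 0.0869 at 48 h in Col, from -0.12 to 0.0480 between genotypes at 48 h and from -0.0167 to 0.13 at 120 h. MSRB5 ranged from -0.49 to 0.0056 at 48 h in Col. MSRB6 ranged from -0.91 to 0.29 in vte2 and from -0.40 to 0.29 in Col at 48 h, and between genotypes from -0.18 to 1.03 at 0 h and from -0.00093 to 0.14 at 48 h. MSRB9 ranged from -0.73 to 0.0473 at 120 h as labelled vte2, and between genotypes from -0.83 to 0.14 at 0 h and from -0.14 to 0.59 at 48 h. The MSRB5 difference at 48 h, the value that chose the gene, lay between -1.61 and -1.54 over the 28 alternatives. Many of these left the 48 h means as they were and could not move it, so the narrow range is no support for the difference.

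Over all probe sets the count of genotype calls at 48 h was 77 as reported, 150 on only the arrays compared, 158 with the replicate block, 961 with array weights, 341 without replicate 3 of both genotypes at 0 h, and 21 without the 120 h arrays, an alternative chosen after seeing the data. Leaving out any 1 array it lay between 32 (without vte2 replicate 3 at 48 h) and 146 (without Col replicate 3 at 48 h). For the interaction of 120 h with 48 h it was 1348 as labelled and 35 with the labels exchanged.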
